A study of Bos taurus with 138 samples.

Results

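A fully grown bovine oocyte waits at the germinal vesicle (GV) stage of prophase I, resumes meiosis during maturation and stops again at metaphase II (MII), ready for fertilisation. The change in ribosome loading of its mRNAs over this step was measured here from 12 of the 138 libraries of the series: fractions F8, F9 and F10 of sucrose gradients A and B, at GV and at MII. In such a gradient a lysate is separated by the number of ribosomes on each mRNA, so that light fractions hold free RNA, F3 to F5 single ribosomes (monosomes) and F8 to F10 many ribosomes (polysomes). The 3 polysome fractions of each gradient were summed, which gave 2 GV pools and 2 MII pools of Bos taurus oocytes, and 3 transcriptomes of whole oocytes per stage were set beside them. GV oocytes came as cumulus-oocyte complexes from follicles of slaughterhouse ovaries and MII oocytes from the same kind of complexes after maturation in vitro. Cumulus cells were stripped from both, and cycloheximide held ribosomes in place before lysis. Neither stage carried a genetic change, and each gradient pooled oocytes from an unstated number of cows, so the spread is that between gradients.

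Transcription is largely silent from the end of oocyte growth until the embryonic genome is activated, so the proteins of maturation are made from stored mRNA. Some of these mRNAs, such as those of MOS and of B-type cyclins, are known to gain poly(A) tails and ribosomes after meiotic resumption through CPEB1, while mRNAs of housekeeping products are known to lose tails and to be repressed or degraded. Polysome fractions show the ribosome loading of an mRNA, which its amount alone does not give.

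The 12 libraries held between 8840839 and 12154183 expected counts, and the 4 pools between 31375135 and 33479723. Of the 12, F10 of MII gradient B stood apart, with 7392 genes detected against 11139 to 12825 in the other 11 libraries and Pearson's r of 0.670 to F10 of MII gradient A against at least 0.894 for the other pairs of gradients. It was kept, and values that rest on it are also given without it. In pooled oocytes, fewer cells of a type and less RNA per cell cannot be told apart. All 15 oocyte markers on the list, from GDF9 to KPNA7, had counts in the pools of both stages. Of 39 genes used as cumulus or granulosa cell markers, AREG, EREG, FOXL2, COL1A1, DCN, KRT18 and TNFAIP6 were at 0 in both GV pools, and AREG, EREG, FSHR, AMHR2 and ADAMTS1 were at 0 in both MII pools. The 32 tested markers summed to 1284 and 1184 CPM in the GV pools and to 885 and 1775 CPM in the MII pools, and in transcriptomes to between 658 and 804 CPM at GV and between 958 and 1420 CPM at MII. STAR had the most counts of these markers in each pool, 36303 and 32630 at GV and 15110 and 23725 at MII. The pool sums therefore lean on STAR, and its lower counts at MII can hide rises of other members. In MII polysomes 7 of these 32 rose and 1 fell, against 7.53% and 8.61% of all genes. In MII transcriptomes 18 rose and 2 fell, against 9.5% and 21.2%. The median log2 fold change of the 32 was 0.50 in polysomes and 2.12 in transcriptomes, against 0.00 and -0.13 for all genes. Without MII gradient A 13 of the 32 were called higher in polysomes, and without GV gradient A or B 4 were.

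The polysome change was broad and nearly even in direction. Values are CPM, counts scaled to a common library total with TMM factors, which sets the bulk of genes to no change, so a rise or fall is relative to the other mRNAs of the pool. A gene was called at a Benjamini-Hochberg adjusted p below 0.05 in edgeR's quasi-likelihood test together with a fold change above 2. Of 12726 genes tested, 958 (7.53%) were called higher in MII polysomes and 1096 (8.61%) lower. Both MII pools lay above both GV pools for 3075 genes (24.2%) and below them for 3407 (26.8%). A call favours genes whose pools do not overlap, so a lack of overlap in a called gene is no further support. In the transcriptomes 1209 genes (9.5%) were called higher and 2693 (21.2%) lower.

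With library totals in place of TMM factors, the median log2 fold change of all genes moved from 0.00 to -0.34, and 491 genes were called higher and 1853 lower, so the balance of the directions rests on the scaling. List medians and counts with library totals are to be read against these values, not against the shares with TMM factors. The spread came from 10 libraries, pools and transcriptomes together. Replicate transcriptomes were more alike (mean Pearson's r from 0.988 to 0.991) than single fractions of gradients A and B in F8 to F10 (0.670 to 0.942). The r between summed pools is not given. Standard errors and adjusted p-values therefore do not measure the spread of the pools alone. In the 4 pools alone, with 2 residual degrees of freedom, the same edgeR test called 0 genes in each direction, and 1013 higher and 1014 lower genes passed an unadjusted p below 0.05 with the fold change. Without F10 of MII gradient B, 909 genes were called higher and 1152 lower, of which 741 and 944 were among those called with it. Counts of all genes also moved when a whole gradient was left out. List counts in those fits therefore cannot be set against the shares of the full fit. With the whole of GV gradient A left out, 429 were called higher and 677 lower. Leaving out GV gradient B gave 630 higher, and leaving out MII gradient A gave 1884 lower.

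**Figure D1:**
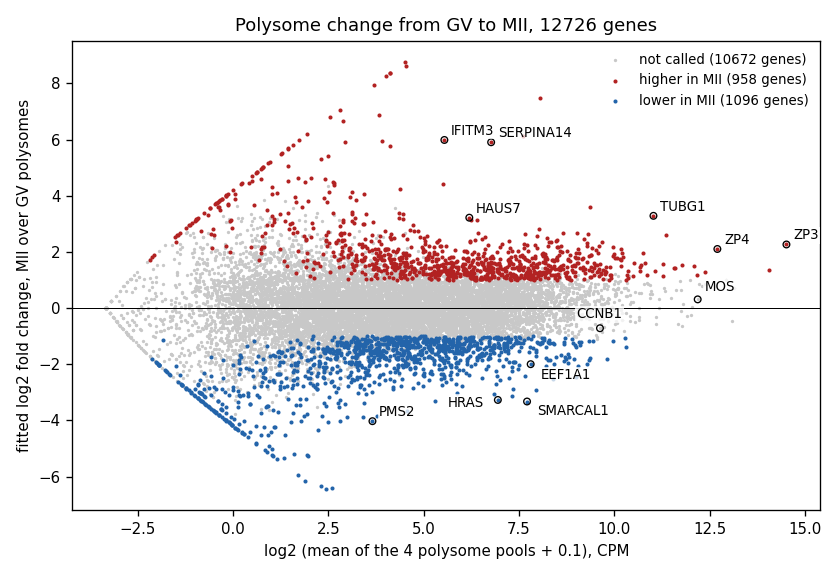
Fitted log2 fold change of MII over GV polysomes (vertical axis) against the log2 mean CPM of the 4 polysome pools (horizontal axis) for 12726 genes, with the 958 genes called higher in red and the 1096 called lower in blue. ZP3, ZP4 and TUBG1 sit above 0 at high levels, HRAS, SMARCAL1 and EEF1A1 below it, and MOS and CCNB1 between the called genes.

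The same genes were then followed in F1 to F7, which were not used to choose them. The 958 genes called higher were on the median higher at MII in each of the lighter fractions too, with a median log2 difference, on log2(CPM + 1), between 0.56 and 0.60 in F1 and F2 and between 0.70 and 0.82 in F3 to F5. In F6 and F7 it was between 0.92 and 0.97. The 1096 genes called lower had medians between -0.31 and 0.00 in F1 and F2, between -0.28 and -0.23 in F3 to F5 and between -0.67 and -0.56 in F6 and F7. The values in F8 to F10 are those that chose the genes. In the monosome pools (F3 to F5 summed), 66.7% of 946 measured genes of the higher class had both MII values above both GV values, against 34.7% of all genes. Of 1093 measured genes of the lower class, 37.7% had both MII values below both GV values, against 31.8% of all genes, and 27.4% had both above.

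**Figure D2:**
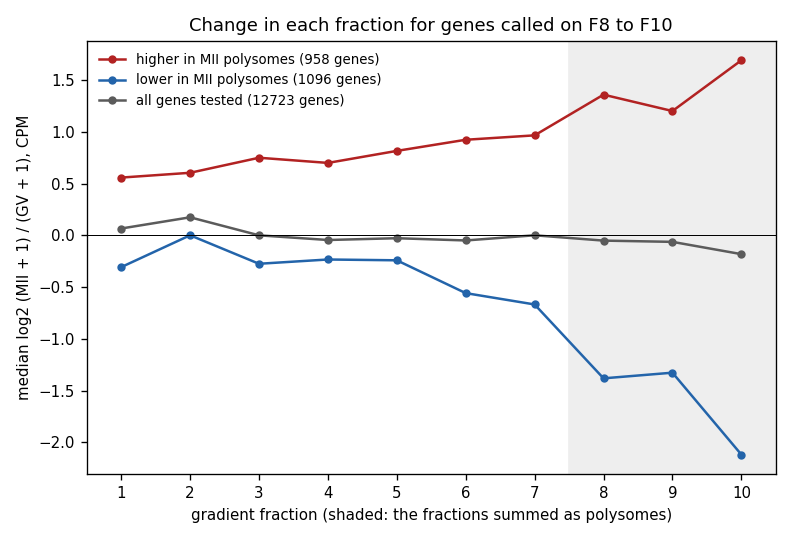
Median log2 difference between MII and GV, as log2(CPM + 1) of the mean of 2 gradients, in each of 10 fractions for the genes called higher in MII polysomes, those called lower and all genes tested; the shaded fractions F8 to F10 chose the genes. The line of the higher genes lies above 0 throughout, from 0.56 upward, and the line of the lower genes lies between -0.31 and 0.00 up to F5 and falls to -2.12 in F10.

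The largest gains were of mRNAs that were near 0 in GV polysomes. IFITM1 and IFITM3, membrane proteins that restrict viruses, ISG15, a ubiquitin-like modifier, and IFI27 are interferon-stimulated genes. IFITM3 stood at 1.34 and 1.36 CPM in the GV pools of gradients A and B and 47.7 and 136 CPM in the MII pools (log2 fold change 5.98 ± 0.62, adjusted p = 0.000330). ISG15 had 0.0267 and 0.254 CPM at GV and 13.4 and 42.9 CPM at MII, and IFI27 had 0.909 and 0.113 CPM at GV and 28.8 and 38.8 CPM at MII. IFITM1 had 0 and 0.0283 CPM at GV and 28.5 and 63.8 CPM at MII. Only genes whose MII pools both exceeded both GV pools were named here, so that separation is not a result. TMEM176B and TMEM176A, neighbouring membrane proteins, were at 0 counts in both GV pools and at 26.5 and 63.7 CPM and at 8.12 and 60.6 CPM in the MII pools. Set against a floor of 3 counts per pool, the mean MII level of TMEM176B was at least 547-fold higher and that of TMEM176A at least 416-fold higher.

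The other genes among the 12 largest gains were TSPAN6, TNFAIP6, PDK4, BMP2, SERPINA14 and OXT. OXT, the hormone oxytocin, had 3.23 and 4.78 CPM at GV and 32.4 and 141 CPM at MII (log2 fold change 4.40 ± 0.60, adjusted p = 0.000909). SERPINA14, a serpin secreted by the uterus, had 2.62 and 4.35 CPM at GV and 89.2 and 339.7 CPM at MII (log2 fold change 5.90 ± 0.70, adjusted p = 0.000457). TNFAIP6, which links hyaluronan in the expanding cumulus matrix, was at 0 counts at GV and at 9.42 and 54.6 CPM at MII, with 107 ± 32.2 CPM (SD, n = 3) in MII transcriptomes. All 12 were higher in MII gradient B than in A, and 11 of the 12 were also called higher in MII transcriptomes, the exception being BMP2 (adjusted p = 0.0863). TNFAIP6 is on the list of cumulus markers, whose tested members summed to 1284 and 1184 CPM in the GV pools and 885 and 1775 CPM in the MII pools of gradients A and B. These sums lean on STAR. Of the 32 tested markers 7 rose and 1 fell in MII polysomes, against 7.53% and 8.61% of all genes. In MII transcriptomes 18 rose and 2 fell, against 9.5% and 21.2%. The part of cumulus cell RNA in the 12 gains was not tested.

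F10 of MII gradient B supplied 90.5% of the gradient B counts of TSPAN6, 98.0% of those of BMP2, all of those of PDK4 and 0% of those of IFI27. Without it, 11 of the 12 calls held and that of BMP2, a secreted growth factor, did not (adjusted p = 0.206). PDK4, with no counts in either GV pool, then had counts in MII gradient A alone, so its call rested on a single gradient. The BMP2 call was also lost without the whole of GV gradient A (adjusted p = 0.0720), GV gradient B (adjusted p = 0.0569) or MII gradient B (adjusted p = 0.301).

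At the egg surface, ZP3, ZP4 and IZUMO1R gained polysome occupancy, while ZP3 and IZUMO1R fell in transcriptomes. ZP3 and ZP4 encode glycoproteins of the zona, the coat around the egg, and IZUMO1R encodes Juno, the receptor for sperm IZUMO1. ZP3 rose from 6051 and 10079 CPM in the GV pools to 26138 and 51272 CPM in the MII pools (log2 fold change 2.26 ± 0.41, adjusted p = 0.00337), and its share of a pool's counts went from 0.684% and 1.06% to 2.19% and 4.48%. ZP4 had 1796 and 3239 CPM at GV and 12135 and 9483 CPM at MII (log2 fold change 2.10 ± 0.31, adjusted p = 0.00118). IZUMO1R had 170.1 and 309 CPM at GV and 777 and 857 CPM at MII (log2 fold change 1.77 ± 0.29, adjusted p = 0.00186). In all 3, both MII pools stood clear of both GV pools, as a call makes likely. The higher MII pool was that of gradient B for ZP3 and IZUMO1R and that of gradient A for ZP4. In the transcriptomes ZP3 went from 2633 ± 459 to 1066 ± 420.1 CPM (SD, n = 3), and ZP4 from 5706 ± 558 to 3262 ± 714 CPM. The polysome change lay above the transcriptome change by 3.57 ± 0.52 log2 units for ZP3 (adjusted p = 0.000461) and by 2.91 ± 0.39 for ZP4 (adjusted p = 0.000260).

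Of 17 tested genes of the zona and egg surface list, 4 rose in MII polysomes, 2 fell and 11 were not called, against 7.53% and 8.61% of all genes. The median log2 fold change was 0.43 (0.07 without TMM) against 0.00 (-0.34 without TMM) for all genes. With a gradient left out 4 or 5 rose and 1 to 3 fell. The remaining riser was CD9, a tetraspanin needed for gamete fusion, at 13.4 and 10.7 CPM at GV and 26.7 and 40.6 CPM at MII (log2 fold change 1.48 ± 0.31, adjusted p = 0.00663), and unlike ZP3 it also rose in transcriptomes (adjusted p = 0.00110). The fallers were FGF8, near 0 throughout, and KITLG, the Kit ligand, at 15.1 and 20.1 CPM at GV and 2.38 and 2.70 CPM at MII (log2 fold change -2.74 ± 0.32, adjusted p = 0.000457). The FGF8 call did not hold without GV gradient A (adjusted p = 0.103), GV gradient B (adjusted p = 0.0878) or MII gradient A (adjusted p = 0.0933). Among the members that were not called, ZP2 had 1082 and 1503 CPM at GV and 1259 and 1722 CPM at MII. The growth factor GDF9 had 915 and 1573 CPM at GV and 811 and 1371 CPM at MII and its partner BMP15 1411 and 1976 CPM at GV and 2332 and 2048 CPM at MII. ASTL, the protease that cleaves ZP2 after fertilisation, had 2966 and 4509 CPM at GV and 7971 and 5719 CPM at MII. The pools of ZP2 and GDF9 overlapped between the stages, and those of BMP15 and ASTL did not.

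**Figure D3:**
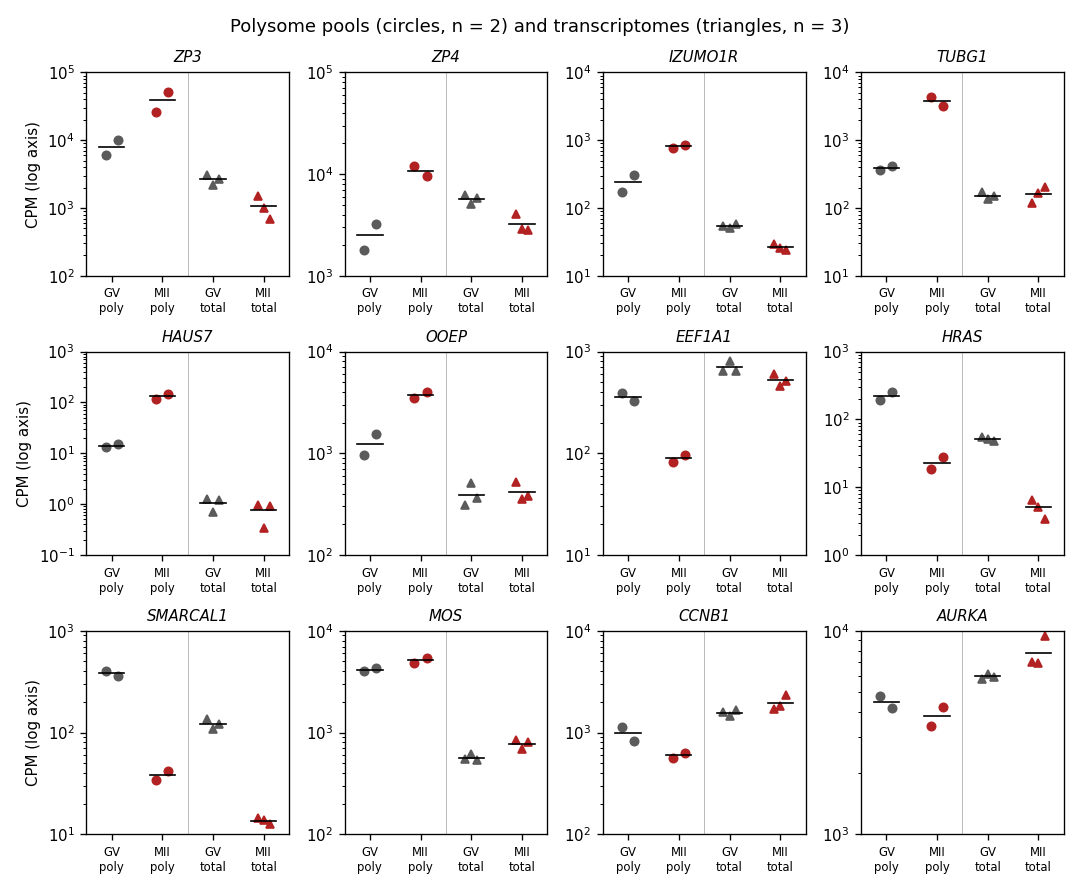
CPM on a log axis of 12 genes in GV and MII polysome pools (circles, n = 2 per stage) and transcriptomes (triangles, n = 3 per stage), with bars at the means. ZP3, ZP4, IZUMO1R, TUBG1, HAUS7 and OOEP are higher in both MII pools, EEF1A1, HRAS and SMARCAL1 lower, and MOS, CCNB1 and AURKA were not called.

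Among maternal-effect genes, whose oocyte products are needed by the early embryo, 5 of 36 tested rose in MII polysomes and 2 fell, against 7.53% and 8.61% of all genes. OOEP and TLE6 encode parts of the subcortical maternal complex. OOEP had 963 and 1533 CPM at GV and 3505 and 3962 CPM at MII (log2 fold change 1.58 ± 0.31, adjusted p = 0.00516). TLE6 had 529 and 1214 CPM at GV and 2367 and 2423 CPM at MII (log2 fold change 1.46 ± 0.36, adjusted p = 0.0154), with both MII pools above both GV pools, while neither was called in the transcriptomes (adjusted p = 0.812 and 0.698). UCHL1, a ubiquitin hydrolase abundant in eggs, had 753 and 1529.9 CPM at GV and 2649 and 2457 CPM at MII. NLRP8 had 2186 and 3451 CPM at GV and 8556 and 4165 CPM at MII. NPM2, a histone chaperone of the egg nucleus, had 68.7 and 64.1 CPM at GV and 92.9 and 189 CPM at MII. STAT3 and TDRKH fell, TDRKH from 159 and 179 to 68.8 and 56.0 CPM (log2 fold change -1.43 ± 0.25, adjusted p = 0.00269). Without GV gradient A the calls of OOEP (adjusted p = 0.0582), TLE6 (0.109), UCHL1 (0.154), NLRP8 (0.240), NPM2 (0.142) and STAT3 (0.0549) were lost. NLRP8 was also lost without GV gradient B (adjusted p = 0.0526) or MII gradient A (0.248), NPM2 without GV gradient B (0.157), MII gradient B (0.297) or its F10 alone (0.123), and with library totals 2 of the 36 were called higher and 6 lower. Without F10 of MII gradient B 4 of the 36 were called higher and 4 lower.

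Genes of the spindle and kinetochore changed in both directions. TUBG1, the gamma-tubulin that nucleates microtubules, rose from 358 and 419 CPM in the GV pools to 4315 and 3249 CPM in the MII pools, a 9.73-fold change (log2 fold change 3.28 ± 0.30, adjusted p = 0.000137). HAUS7, a subunit of the augmin complex that recruits gamma-tubulin to spindle microtubules, had 13.3 and 14.99 CPM at GV and 119 and 146 CPM at MII, a 9.30-fold change (log2 fold change 3.22 ± 0.38, adjusted p = 0.000457). Neither TUBG1 nor HAUS7 was called in transcriptomes (adjusted p = 0.809 and 0.366). PMF1 and CENPT of the kinetochore rose in polysomes, PMF1 to 208 and 439 CPM from 75.7 and 72.4 and CENPT to 313 and 289 CPM from 71.5 and 99.9, as both fell in transcriptomes (log2 fold change -2.64 ± 0.31 and -1.91 ± 0.21). INCENP, which anchors Aurora B in the chromosomal passenger complex, rose at a low level, from 3.07 and 2.88 to 17.4 and 9.27 CPM (log2 fold change 2.12 ± 0.46, adjusted p = 0.00844).

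The same list held 9 genes that fell of 73 tested, against the 5 that rose (4 falls without GV gradient A and 14 without MII gradient B). The shares were 12.3% and 6.85%, against 8.61% and 7.53% of all genes, and with library totals 17 fell and 5 rose. The list had a median log2 fold change of -0.33 in polysomes and 0.38 in transcriptomes. DSN1, of the MIS12 complex to which PMF1 also belongs, had 74.3 and 59.0 CPM at GV and 18.5 and 19.7 CPM at MII (log2 fold change -1.80 ± 0.26, adjusted p = 0.00114). CKAP5, a microtubule polymerase, had 139 and 195 CPM at GV and 47.6 and 80.1 CPM at MII. KNL1, the outer kinetochore scaffold, had 45.97 and 31.8 CPM at GV and 10.95 and 18.9 CPM at MII. ZW10, of the complex that recruits dynein to kinetochores, had 110.3 and 86.5 CPM at GV and 35.8 and 33.7 CPM at MII. In transcriptomes CKAP5 and KNL1 rose (adjusted p = 0.00737 and 0.00971), and ZW10 was not called (0.81 ± 0.25). The polysome calls were lost without GV gradient A for KNL1 (adjusted p = 0.103) and ZW10 (adjusted p = 0.0538), and without GV gradient B or MII gradient A for CKAP5 (adjusted p = 0.0993 and 0.0549).

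MOS, a kinase that holds the MII arrest, stood at 4004 and 4322 CPM in the GV pools of gradients A and B and 4869 and 5441 CPM in the MII pools (log2 fold change 0.31 ± 0.21, adjusted p = 0.347). The MOS pools did not overlap, and the fold change was 1.24. CCNB1, the cyclin B1 subunit of maturation-promoting factor, had 1140.5 and 821 CPM at GV and 565 and 627 CPM at MII (log2 fold change -0.72 ± 0.25, adjusted p = 0.0604). AURKA, the spindle kinase, had 4797 and 4157 CPM at GV and 3394 and 4219.8 CPM at MII. BTG4, the adaptor that brings deadenylases to maternal mRNA, had 2021 and 1342 CPM at GV and 1887 and 2856 CPM at MII. TPX2, which activates AURKA, had 158 and 138 CPM at GV and 148 and 134 CPM at MII. None of the 5 was called, but with library totals CCNB1 was called lower (log2 fold change -1.08, adjusted p = 0.00764). The pools of AURKA overlapped between the stages, as did those of BTG4 and TPX2.

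Of 26 tested genes in the list of mRNAs activated in maturation, 1 rose in MII polysomes, INCENP, and 3 fell, BUB1B, CDC6 and RACGAP1, shares of 3.85% and 11.5% against 7.53% and 8.61% of all genes. BUB1B, the checkpoint kinase BubR1, had 117 and 160.1 CPM at GV and 49.99 and 40.6 CPM at MII (log2 fold change -1.61 ± 0.25, adjusted p = 0.00155). CDC6, a licensing factor of replication, had 167 and 161 CPM at GV and 55.0 and 78.0 CPM at MII (log2 fold change -1.30 ± 0.25, adjusted p = 0.00486). The list's median log2 fold change was -0.15 in polysomes and 0.72 in transcriptomes, in which 9 of the 26 rose and 1 fell, against 9.5% and 21.2% of all genes. Polysome changes of 9 members lay below their transcriptome changes, against 11.2% of all genes. An example is CNOT6L, a deadenylase subunit that rose in transcriptomes (log2 fold change 1.56 ± 0.21) with 18.1 and 26.0 CPM at GV and 16.9 and 21.2 CPM at MII in polysomes.

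Kinases and regulators of maturation-promoting factor gave 1 rise and 5 falls among 35 tested genes, against 7.53% and 8.61% of all genes, with a median of -0.40. With library totals there were 0 rises and 9 falls. Without GV gradient A 3 fell, and without GV gradient B 1. The riser was CCNE1, cyclin E1, at 7.32 and 4.67 CPM at GV and 11.6 and 17.6 CPM at MII (adjusted p = 0.0405), whose call was lost without GV gradient A (adjusted p = 0.0571), GV gradient B (0.178) or MII gradient B (0.0962). Among the fallers were CDK1, ENSA, CCNE2 and PPP2R2A. CDK1, the catalytic subunit, had 42.8 and 57.5 CPM at GV and 17.5 and 25.5 CPM at MII (log2 fold change -1.22 ± 0.29, adjusted p = 0.0135). With F8 and F9 alone CDK1 was not called in edgeR's test (log2 fold change -0.75, adjusted p = 0.157). ENSA, an inhibitor of the phosphatase PP2A, had 217 and 274 CPM at GV and 65.8 and 142 CPM at MII (log2 fold change -1.24 ± 0.32, adjusted p = 0.0201). Of the partners of CDK1, CCNB2 had 841 and 692 CPM at GV and 570.5 and 1138 CPM at MII and CCNB3 604 and 727 CPM at GV and 332 and 339 CPM at MII. CCNB3 passed the limit on the adjusted p (0.0283) but missed that on the fold change. PLK1, a kinase of mitotic entry, had 1230.5 and 1256 CPM at GV and 3089 and 1457 CPM at MII, with a wide gap between the MII gradients, and was not called in polysomes (adjusted p = 0.176). Its transcriptome fell (log2 fold change -2.03 ± 0.36) and its polysome change lay above that by 2.90 ± 0.56 (adjusted p = 0.00224). The CDK1 and ENSA calls were lost without GV gradient B (adjusted p = 0.0841 and 0.1005) or MII gradient A (0.0422, with a fold change under 2, and 0.0570), that of CCNE2 without GV gradient B (0.0568), and that of PPP2R2A without GV gradient A (0.0910). Of 22 tested genes of the cAMP signalling that holds the GV arrest, 0 were called in edgeR's test, and 2 were called lower with library totals. At an unadjusted p under 0.05 with the fold change 1 was higher and 1 lower, and DESeq2's adjusted p called 0 higher and 1 lower.

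The anaphase-promoting complex, which ubiquitinates cyclin B and securin, showed changes of opposite sign among its parts. ANAPC11, the RING subunit, had 629.9 and 581 CPM at GV and 1688 and 1743 CPM at MII, a 2.83-fold change (adjusted p = 0.00257). UBE2S, the E2 enzyme that extends ubiquitin chains, had 413 and 442 CPM at GV and 1195 and 1024 CPM at MII (log2 fold change 1.38 ± 0.23, adjusted p = 0.00242). ANAPC2, the cullin that pairs with ANAPC11, had 411 and 512 CPM at GV and 133 and 136 CPM at MII (log2 fold change -1.78 ± 0.44, adjusted p = 0.0158). ANAPC5 had 40.7 and 51.4 CPM at GV and 14.5 and 14.1 CPM at MII. For each of the 4, no MII pool overlapped a GV pool, as a call makes likely. Of the 32 tested genes of the complex and its checkpoint, 3 rose, 7 fell and 22 were not called, against 7.53% and 8.61% of all genes. Without GV gradient B 4 fell, and with library totals 10 did. The ANAPC2 call was lost without GV gradient B (adjusted p = 0.0758).

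Of 55 tested genes of cytoplasmic polyadenylation and mRNA storage, 8 fell, 1 rose and 46 were not called, against 8.61% and 7.53% of all genes, with a median of -0.30 in polysomes and 0.36 in transcriptomes. With library totals 15 fell and 0 rose. CAPRIN1, a granule protein that binds mRNA, had 30.8 and 18.4 CPM at GV and 2.27 and 5.18 CPM at MII (log2 fold change -2.69 ± 0.44, adjusted p = 0.00201). CPSF3, the endonuclease of the cleavage and polyadenylation factor, had 55.8 and 56.4 CPM at GV and 17.9 and 19.6 CPM at MII (log2 fold change -1.58 ± 0.24, adjusted p = 0.00145). F10 supplied 60.0% and 50.1% of its counts in the GV pools and 4.17% and 0% in the MII pools. With F8 and F9 alone CPSF3 was not called in edgeR's test (log2 fold change -0.59, adjusted p = 0.102). EIF4E2, a cap-binding repressor, had 77.4 and 64.6 CPM at GV and 30.7 and 24.7 CPM at MII (log2 fold change -1.36 ± 0.27, adjusted p = 0.00566). All 3 fell without overlap between the stages, as a call makes likely. The 8 falls were 4 without GV gradient A, 5 without GV gradient B and 15 without MII gradient B. TENT2, the cytoplasmic poly(A) polymerase GLD-2, had 52.0 and 54.1 CPM at GV and 25.3 and 31.4 CPM at MII in polysomes. It went from 108 ± 6.89 to 192 ± 52.8 CPM (SD, n = 3) in transcriptomes, a difference of -1.73 ± 0.36 log2 units (adjusted p = 0.00349). ZAR1, a repressor of stored maternal mRNA, had 918 and 1584 CPM at GV and 895 and 776 CPM at MII and was not called, while its transcriptome fell from 539.7 ± 128 to 83.1 ± 10.03 CPM. DAZL, which works with CPEB1, had 21.9 and 18.7 CPM at GV and 17.5 and 21.4 CPM at MII. PABPC1, the poly(A)-binding protein, had 39.6 and 31.8 CPM at GV and 53.4 and 44.0 CPM at MII. The riser, FXR2, passed the limits narrowly at 52.4 and 79.0 CPM at GV and 132 and 137 CPM at MII (adjusted p = 0.0410). Its call was lost without GV gradient A (adjusted p = 0.236), GV gradient B (0.0501), F10 of MII gradient B (0.0405, with a fold change under 2) or TMM (0.196).

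Of 46 tested genes of deadenylation and decay, 2 rose and 2 fell in polysomes, against 7.53% and 8.61% of all genes, and 12 rose and 4 fell in transcriptomes, against 9.5% and 21.2%. With library totals the polysome counts were 1 and 7. CNOT1, the scaffold of the CCR4-NOT deadenylase, had 101 and 161 CPM at GV and 27.0 and 45.5 CPM at MII (log2 fold change -1.86 ± 0.33, adjusted p = 0.00304). CNOT10 had 126 and 94.5 CPM at GV and 22.2 and 36.8 CPM at MII (log2 fold change -1.90 ± 0.30, adjusted p = 0.00155). Both MII pools of each were under both GV pools, as a call makes likely. Without MII gradient A 6 genes rose and 7 fell, and without MII gradient B 4 rose and 4 fell. The risers were ZFP36L2, whose call was lost without GV gradient B (adjusted p = 0.147) or MII gradient A (0.0580), and PNRC1, lost without GV gradient B (0.0721). CNOT7, a catalytic subunit, had 129 and 104 CPM at GV and 155 and 124 CPM at MII and was not called.

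Protein synthesis genes moved in a mixed way, with more rises than falls among structural ribosomal proteins and more falls than rises among soluble factors. Of 82 tested cytosolic ribosomal protein genes, 20 rose in MII polysomes, 2 fell and 60 were not called, against 7.53% and 8.61% of all genes. Both MII pools lay above both GV pools for 39 and below them for 10, against 24.2% and 26.8% of all genes. The summed level of the 82 genes was 9631 and 12048 CPM in the GV pools and 12749 and 19598 CPM in the MII pools. RPL23 had 22.1 and 28.6 CPM at GV and 99.1 and 173 CPM at MII (log2 fold change 2.42 ± 0.36, adjusted p = 0.00134). RPL12 had 7.62 and 11.4 CPM at GV and 65.8 and 43.3 CPM at MII (log2 fold change 2.51 ± 0.39, adjusted p = 0.00158). RPL4 went the other way, at 157 and 134 CPM at GV and 71.0 and 58.8 CPM at MII (log2 fold change -1.16 ± 0.24, adjusted p = 0.00620). In transcriptomes 2 of the 82 rose and 23 fell, against 9.5% and 21.2% of all genes. The polysome change lay above the transcriptome change for 31 (18.1% of all genes). The median polysome log2 fold change was 0.47, and 0.13 with library totals (-0.34 for all genes), which called 10 higher and 4 lower. Without F10 of MII gradient B, 12 were called higher and 7 lower, without the whole of that gradient 13 and 11, without GV gradient A 6 and 1, and without MII gradient A 31 and 1. Ribosomal protein mRNAs have many processed pseudogenes, and reads that fit both are divided by the counting, so single members are uncertain.

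The protein parts of the mitochondrial ribosome, made in the cytosol, gave 20 rises and 9 falls among 82 tested genes, against 7.53% and 8.61% of all genes. MRPL21 had 66.8 and 79.0 CPM at GV and 262 and 431 CPM at MII (log2 fold change 2.25 ± 0.34, adjusted p = 0.00141). MRPS7 had 262 and 243 CPM at GV and 806 and 661 CPM at MII (log2 fold change 1.54 ± 0.24, adjusted p = 0.00157). MRPS2 had 916 and 1091 CPM at GV and 222 and 281 CPM at MII (log2 fold change -1.99 ± 0.30, adjusted p = 0.00133). MRPL28 had 369 and 392 CPM at GV and 86.2 and 144 CPM at MII (log2 fold change -1.72 ± 0.37, adjusted p = 0.00852). Members of a single particle thus changed in opposite directions. For those named here no MII pool overlapped a GV pool, as a call makes likely. In transcriptomes 45 of the 82 fell, against 21.2% of all genes, with a median of -1.32. The polysome change lay above the transcriptome change for 45 and below it for 2, against 18.1% and 11.2% of all genes. The polysome median of 0.26 turned to -0.08 with library totals, with which 8 were called higher and 11 lower. Library totals put the median of all genes at -0.34 and called 491 of 12726 higher and 1853 lower. Without GV gradient A 11 rose and 6 fell, without GV gradient B 13 rose, and without MII gradient B 17 rose and 18 fell.

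Nuclear genes of oxidative phosphorylation, the respiratory chain and ATP synthase, gave 14 rises and 3 falls among 77 tested genes in polysomes, against 7.53% and 8.61% of all genes. In transcriptomes they gave 1 rise and 36 falls, against 9.5% and 21.2% of all genes. UQCRC1, of complex III, had 128 and 314 CPM at GV and 797 and 932 CPM at MII (log2 fold change 1.97 ± 0.35, adjusted p = 0.00298). UQCRC2, the partner of UQCRC1, had 71.3 and 68.1 CPM at GV and 23.3 and 24.6 CPM at MII (log2 fold change -1.54 ± 0.24, adjusted p = 0.00155). Their median of 0.39 was 0.05 with library totals (-0.34 for all genes), which called 11 higher and 6 lower. Counts of all genes also moved when a gradient was left out, so the next counts cannot be set against 7.53% and 8.61%. Without GV gradient A 2 were called higher and 2 lower, without MII gradient A 23 higher, and without MII gradient B 7 lower.

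Translation factors gave 4 rises and 11 falls among 62 tested genes, against 7.53% and 8.61% of all genes, and 13 falls with library totals. EEF1A1, which delivers aminoacyl-tRNA to the ribosome, had 388 and 328 CPM in the GV pools of gradients A and B and 83.0 and 96.0 CPM in the MII pools (log2 fold change -2.00 ± 0.25, adjusted p = 0.000528) without a called fall in transcriptomes (adjusted p = 0.114). GSPT1, the termination factor eRF3a, had 70.3 and 68.6 CPM at GV and 17.7 and 22.8 CPM at MII (log2 fold change -1.77 ± 0.27, adjusted p = 0.00146). EIF3M had 147 and 120.4 CPM at GV and 38.0 and 41.5 CPM at MII (log2 fold change -1.75 ± 0.25, adjusted p = 0.00113). EIF2S1, the alpha subunit of eIF2, had 50.003 and 41.4 CPM at GV and 12.3 and 18.8 CPM at MII (log2 fold change -1.55 ± 0.28, adjusted p = 0.00328). No pool of one stage overlapped the other for these factors, as a call makes likely. The 4 that rose were EIF4G1, EIF3I, EIF4A3 and EIF4A1, and none of these 4 calls held with library totals. The call of EIF4G1 was also lost without GV gradient B (adjusted p = 0.110) and that of EIF3I without GV gradient A (0.0583) or MII gradient B (0.0343, with a fold change under 2). That of EIF4A3 was lost without GV gradient A (0.142), GV gradient B (0.108) or MII gradient A (0.216), and that of EIF4A1 without GV gradient A (0.0728), GV gradient B (0.195) or F10 of MII gradient B (0.109).

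Factors of mitochondrial translation gave 8 falls and 0 rises (edgeR) among 37 genes, against 8.61% and 7.53% of all genes. Among the fallers, GFM1, an elongation factor, had 15.6 and 19.2 CPM at GV and 3.76 and 1.06 CPM at MII, and CARS2, a tRNA synthetase, 813 and 905 CPM at GV and 224 and 183 CPM at MII. At an unadjusted p under 0.05 with the fold change, 2 of these 37 were higher and 9 lower, and DESeq2's adjusted p called 1 higher and 9 lower. Without GV gradient B 2 were higher and 4 lower, and with library totals 12 were lower.

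**Figure D4:**
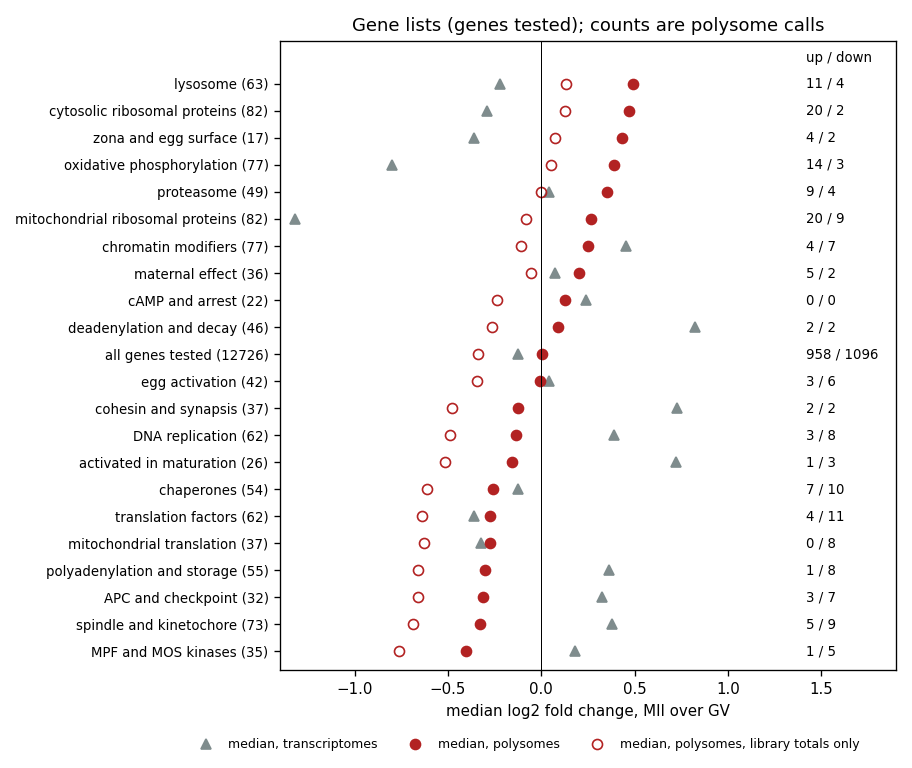
Median log2 fold change of MII over GV for 21 gene lists and all genes tested, in polysomes (filled circles), in polysomes with library totals in place of TMM factors (open circles) and in transcriptomes (triangles), with the number of genes called higher and lower in polysomes at the right. Mitochondrial ribosomal proteins lie at 0.26 in polysomes and -1.32 in transcriptomes, spindle genes at -0.33 and 0.38, and every open circle lies to the left of its filled circle.

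Protein turnover and folding genes also held members of both signs. Proteasome genes gave 9 rises and 4 falls of 49, against 7.53% and 8.61% of all genes, and 7 of each with library totals. PSMA7, a core subunit, had 616 and 472 CPM at GV and 1758 and 1819 CPM at MII (log2 fold change 1.72 ± 0.25, adjusted p = 0.00113). PSMD6, of the lid, had 99.1 and 86.3 CPM at GV and 19.7 and 28.9 CPM at MII (log2 fold change -1.93 ± 0.27, adjusted p = 0.00104). Lysosomal genes gave 11 rises and 4 falls of 63, shares of 17.5% and 6.35% against the same backgrounds, and 6 rises and 7 falls with library totals. ATP6V0D1, of the proton pump's membrane sector, had 524 and 517 CPM at GV and 2050.4 and 1422 CPM at MII (log2 fold change 1.74 ± 0.26, adjusted p = 0.00131). ATP6V1E1, of its catalytic sector, had 140.3 and 147 CPM at GV and 43.0 and 46.5 CPM at MII (log2 fold change -1.68 ± 0.27, adjusted p = 0.00176). Chaperones gave 7 rises and 10 falls of 54, against the same backgrounds, and 6 and 16 with library totals. HSPB1, a small heat shock protein, had 17.0 and 14.2 CPM at GV and 83.0 and 62.0 CPM at MII, and P4HB, the protein disulfide isomerase, 174 and 228 CPM at GV and 738 and 611 CPM at MII. CCT3, a chaperonin subunit, went down, with 727 and 675 CPM at GV and 114 and 249 CPM at MII, as did the co-chaperone STIP1, with 602 and 490.4 CPM at GV and 112 and 211 CPM at MII. Each of these 8 genes separated the stages without overlap, as a call makes likely. The medians of 0.35 and 0.49 for proteasome and lysosome became 0.00 and 0.13 with library totals, against -0.34 for all genes on that scaling. Library totals called 491 of 12726 genes higher and 1853 lower, which is the background for the list counts with library totals. Without GV gradient A 5 proteasome, 5 lysosomal and 3 chaperone genes rose, and without MII gradient B 17 lysosomal genes did.

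Of 62 DNA replication genes 3 rose and 8 fell, and of 77 chromatin modifiers 4 rose and 7 fell, against 7.53% and 8.61% of all genes. With library totals the counts were 2 and 16 for replication and 2 and 10 for chromatin. GINS2, part of the replicative helicase, had 121 and 143 CPM at GV and 746 and 441 CPM at MII (log2 fold change 2.17 ± 0.29, adjusted p = 0.000909). MCM6, a ring subunit of the same helicase, fell, with 239 and 289 CPM at GV and 80.2 and 59.6 CPM at MII (log2 fold change -1.92 ± 0.31, adjusted p = 0.00186). RFC3, a subunit of the clamp loader, had 223 and 189 CPM at GV and 17.0 and 60.0 CPM at MII (log2 fold change -2.42 ± 0.44, adjusted p = 0.00331). SETDB1, a histone H3 lysine methyltransferase, had 80.0 and 93.7 CPM at GV and 27.2 and 23.2 CPM at MII (log2 fold change -1.78 ± 0.30, adjusted p = 0.00217). HDAC2, a histone deacetylase, had 7.83 and 7.92 CPM at GV and 3.28 and 2.34 CPM at MII. KMT2A was called higher with 0.722 and 0.933 CPM at GV and 14.4 and 0.475 CPM at MII, so the pools overlapped, and without MII gradient A its log2 fold change was -0.68. Its call was also lost without GV gradient A (adjusted p = 0.197) or GV gradient B (0.144). The chromatin counts depended on the gradients, with 14 rises and 10 falls without MII gradient B, 9 and 7 without its F10 alone, 5 and 13 without MII gradient A, and 2 and 6 without GV gradient A. Without GV gradient A the replication counts were 1 and 5. Cohesin and synapsis genes gave 2 rises and 2 falls of 37 (1 and 4 with library totals), against the same 7.53% and 8.61%. SYCE3, of the synaptonemal complex, rose, with 6.25 and 8.28 CPM at GV and 33.7 and 46.6 CPM at MII. The falls, SYCE2 and NCAPH, did not hold without F10 of MII gradient B (adjusted p = 0.0662, and 0.0246 with a fold change under 2). Genes of egg activation and calcium signalling gave 3 rises and 6 falls of 42, against the same 7.53% and 8.61%. The calcium sensor STIM2 fell, with 21.6 and 18.0 CPM at GV and 6.52 and 7.12 CPM at MII (log2 fold change -1.52 ± 0.29, adjusted p = 0.00451). With library totals 2 rose and 7 fell. Without GV gradient A 1 of these 42 fell, without GV gradient B 2, and without MII gradient A 10.

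The 12 largest losses from polysomes, among genes of at least 10 CPM on average, differed in known function. SMARCAL1, a helicase that repairs stalled replication forks, had 401 and 361 CPM in the GV pools of gradients A and B and 34.0 and 41.7 CPM in the MII pools, a 10.04-fold fall (log2 fold change -3.33 ± 0.26, adjusted p = 0.000120). HRAS, the small GTPase, had 194 and 252 CPM at GV and 18.4 and 27.6 CPM at MII, a 9.66-fold fall (log2 fold change -3.27 ± 0.34, adjusted p = 0.000330). PIGQ, an enzyme that makes GPI anchors, had 171 and 237 CPM at GV and 26.4 and 22.6 CPM at MII (log2 fold change -3.05 ± 0.33, adjusted p = 0.000339). SMARCAL1 and HRAS also fell in transcriptomes (log2 fold change -3.15 ± 0.21 and -3.33 ± 0.29), and 9 of the 12 were called lower there.

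PMS2, of DNA mismatch repair, had 26.7 and 20.7 CPM at GV and 2.16 and 0.548 CPM at MII. DNAJC13, a co-chaperone of endosomes, had 20.4 and 30.9 CPM at GV and 1.01 and 2.41 CPM at MII (log2 fold change -3.83 ± 0.39, adjusted p = 0.000330). DNAJC13 left the polysomes while its transcriptome went from 60.3 ± 6.77 to 118 ± 7.77 CPM (SD, n = 3), a difference of -4.80 ± 0.48 log2 units (adjusted p = 5.68e-05). The rest were LRFN3, MAN2C1, SLC25A29, SLC19A1, ZNF226, LIPT1 and ZSCAN31, with fold changes in CPM means from the fit between 8.06 and 14.8. All 12 calls held without F10 of MII gradient B. That of SLC25A29 was lost without GV gradient A (adjusted p = 0.0583) or GV gradient B (0.175), and that of SLC19A1 without GV gradient B (0.0503).

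Polysome and transcriptome changes were then compared in a single model, which asks whether the polysome level changed beyond the transcriptome level. Poly(A) tail length was not measured, and whether it bears on the levels in either kind of library was not tested. The polysome change lay above the transcriptome change for 2305 of 12726 genes (18.1%) and below it for 1421 (11.2%). Of the 958 genes that rose in polysomes, 121 also rose in transcriptomes, 190 fell there and 647 were not called there. Of the 1096 that fell in polysomes, 377 also fell in transcriptomes, 59 rose and 660 were not called. For 586 of the 958 and 490 of the 1096, the polysome change exceeded the transcriptome change in its own direction. Both sets were chosen by the polysome change that is part of this difference, so an overlap is built in.

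The 5 largest differences upward among genes that pass the level and overlap limits were ARL6IP4, MTG2, LENG1, PMF1 and MEAK7, and in each the polysome level rose and the transcriptome fell. MEAK7 had 65.6 and 78.6 CPM at GV and 507 and 356 CPM at MII in polysomes and 2.50 ± 1.39 and 0.530 ± 0.242 CPM (SD, n = 3) in GV and MII transcriptomes, a difference of 4.61 ± 0.63 log2 units (adjusted p = 0.000282). MTG2, a GTPase of mitochondrial ribosome assembly, had 17.2 and 12.6 CPM at GV and 47.0 and 63.3 CPM at MII in polysomes (difference 4.84 ± 0.59). The polysome call of ARL6IP4 was lost without F10 of MII gradient B (adjusted p = 0.155), without GV gradient B (0.103) and without MII gradient B (0.0836), and that of LENG1 without GV gradient A (0.0587) or B (0.0702).

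The 5 largest downward were DNAJC13, NBEA, IFITM3, ARAF and HACE1. ARAF, a RAF kinase, rose in polysomes, with 29.5 and 44.2 CPM at GV and 83.0 and 156 CPM at MII, but rose more in transcriptomes, from 3.62 ± 0.595 to 141 ± 37.6 CPM (SD, n = 3), as IFITM3 did. HACE1, a ubiquitin ligase, had 19.2 and 18.8 CPM at GV and 1.68 and 6.42 CPM at MII in polysomes and rose from 52.9 ± 3.64 to 134 ± 29.6 CPM in transcriptomes. The ARAF polysome call was lost without GV gradient A (adjusted p = 0.0806).

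**Figure D5:**
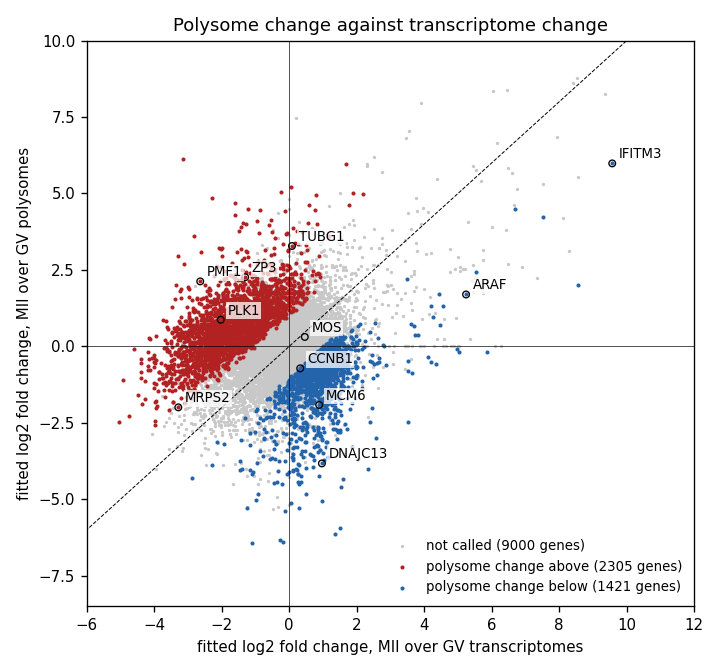
Fitted log2 fold change of MII over GV in polysomes (vertical axis) against transcriptomes (horizontal axis), with the 2305 genes whose polysome change lay above the transcriptome change in red and the 1421 below it in blue; the dashed line marks equal changes. ZP3, PMF1 and PLK1 lie in the upper left, with falling transcriptomes, and MCM6 and DNAJC13 in the lower right.

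Finally, the polysome pool of each gradient was set against the monosome pool (F3 to F5) of the same gradient, which asks where in the gradient an mRNA sat. Of 13618 genes tested, 239 (1.76%) shifted towards polysomes at MII and 328 (2.41%) towards monosomes. Of the 958 genes called higher in polysomes, 41 shifted towards polysomes and 8 towards monosomes, and of the 1096 called lower, 137 shifted towards monosomes and 4 towards polysomes. Both classes share the polysome values with this test.

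The shift is the polysome change less the monosome change, so the levels of shifted genes on either side are a description. In 230 of the 239 genes that shifted towards polysomes both MII monosome pools lay below both GV ones (31.8% of all genes), and in 106 both MII polysome pools lay above (24.2% of all genes). The 24.2% comes from the 10-library fit, whose scaling differs from that of the 8 pools of the shift. CDC20, the activator of the anaphase-promoting complex, had monosome levels of 2166 and 1753 CPM at GV and 362 and 391 CPM at MII and polysome levels of 1153 and 1334 and then 1539 and 1203 CPM. This was a shift of 2.51 ± 0.46 log2 units (adjusted p = 0.0164). CCNA2, cyclin A2, had monosome levels of 257 and 533 CPM at GV and 80.7 and 63.5 CPM at MII (shift 2.26 ± 0.56, adjusted p = 0.0434), a call that was lost without GV gradient B (adjusted p = 0.162) or MII gradient B (0.0761). CNOT7 followed with 107 and 211 CPM at GV and 29.9 and 20.2 CPM at MII (shift 2.88 ± 0.56), and CCNE1 with 15.2 and 22.8 CPM at GV and 1.47 and 0.605 CPM at MII (shift 5.47 ± 0.90). CCNB1 had a shift of 1.48 ± 0.46 that did not pass (adjusted p = 0.0868), and MOS one of 1.18 ± 0.43 (adjusted p = 0.132). In the maturation list CCNA2, CNOT7 and CDC20 shifted towards polysomes and CCNB2, RACGAP1 and GTSF1 towards monosomes. The last 3 were lost with a gradient left out: CCNB2 without GV gradient A (adjusted p = 0.150), GV gradient B (0.0565) or MII gradient A (0.117), RACGAP1 without GV gradient A (0.137) or MII gradient A (0.1002), and GTSF1 without GV gradient B (0.0581). OOSP2, a secreted oocyte protein, had monosome levels of 394 and 237 CPM at GV and 41.7 and 47.8 CPM at MII and polysome levels of 371 and 314 and then 336 and 404 CPM (shift 2.88 ± 0.47, adjusted p = 0.0144).

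In 307 of the 328 genes that shifted towards monosomes both MII monosome pools lay above both GV ones (34.7% of all genes), and in 232 both MII polysome pools lay below (26.8% of all genes, on the scaling of the 10-library fit). GDF9 had monosome levels of 268 and 267 CPM at GV and 1959.7 and 2188 CPM at MII with overlapping polysome pools (shift -3.12 ± 0.49, adjusted p = 0.0144). XRCC6, the Ku70 subunit of DNA end joining, had 19.5 and 24.5 CPM at GV and 203 and 194 CPM at MII (shift -3.88 ± 0.51, adjusted p = 0.0144). PMPCB, of the mitochondrial processing peptidase, had 9.32 and 11.5 CPM at GV and 69.9 and 54.1 CPM at MII (shift -3.67 ± 0.68, adjusted p = 0.0173). RPL4 joined a monosome rise, 47.9 and 67.9 CPM at GV and 182 and 245 CPM at MII, to its polysome fall (shift -3.04 ± 0.52, adjusted p = 0.0144). By list, 8 of 82 cytosolic ribosomal protein genes, 10 of 77 oxidative phosphorylation genes and 9 of 54 chaperones shifted towards monosomes, against 2.41% of all genes, with median shifts of -0.98, -1.23 and -1.02 log2 units against 0.02 for all genes. This was not particular to these lists. Towards monosomes went 7 of 73 spindle genes, 6 of 62 translation factors, 5 of 49 proteasome genes and 3 of 17 egg surface genes too. In contrast, 0 of 22 cAMP genes, 0 of 77 chromatin modifiers and 0 of 42 egg activation genes did.

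The 5 largest shifts towards polysomes under the naming limits were IFITM1, CCNE1, TMEM176A, IFI27 and ILVBL, and the 5 largest towards monosomes AIMP1, PMS2, XRCC6, NBEA and PMPCB. Of these the calls of ILVBL (adjusted p = 0.152), TMEM176A (adjusted p of 1), PMS2 (0.0871) and NBEA (0.0881) were lost without GV gradient A, and that of TMEM176A also without MII gradient B (0.102). This test rests on 8 pools with 2 residual degrees of freedom, and without GV gradient A it called 146 genes towards polysomes and 198 towards monosomes. Without MII gradient A it called 562 and 537, and without MII gradient B 612 towards monosomes.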

How the data were processed

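Oocytes were lysed and spun through sucrose gradients, which were cut into 10 fractions, and each fraction and each transcriptome was sequenced as its own library after SMART-Seq amplification and Nextera XT tagging. The values are expected counts per gene from Salmon, deposited by the authors, of which 11.7% were not whole, and they were rounded before testing. The submitters' processing notes name the genome build UMD3.1, and the study's methods name a later build. The kits do not mark strand, so overlapping genes on opposite strands cannot be told apart.

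F8 to F10 were summed within each gradient, as F3 to F5 were for monosomes. The 4 polysome pools and 6 transcriptomes, 10 libraries, were fitted in 4 groups with edgeR 4.0.16 (limma 3.58.1, R 4.3.3), with TMM factors, edgeR's filter on low counts and the quasi-likelihood F test (6 residual degrees of freedom). The shift was fitted on 8 pools with the gradient as a block (2 residual degrees of freedom). P-values were adjusted over all genes tested by Benjamini and Hochberg. Calls needed an adjusted p below 0.05 and a fold change above 2. Errors of fold changes are standard errors. DESeq2 1.42.0 was an alternative. Figures were drawn with Python 3.11.15, pandas 2.3.3, numpy 2.4.6 and matplotlib 3.10.9. The scripts were tested on simulated data.

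Stages and gradients were taken from the labels. The members and gene lists were chosen with earlier results of these data known. Named genes were the 12 largest changes in each direction without overlap between stages and with at least 10 CPM over the 4 pools, the 5 largest differences from the transcriptome and the 5 largest shifts in each direction, up to 6 called members per list, and any measured member of 4 lists (maturation, maturation-promoting factor, mRNA storage and egg surface). Other list members named as the few risers or fallers, and members named for their shift, were chosen after their values were seen. With no genome of the files' build, motifs in the mRNAs were not analysed here. At the depth of the pools, 3 counts, taken as the floor, amount to between 0.0802 and 0.112 CPM, which covers counting error only. A few items are not reported here.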

Additional observations from a re-analysis of the deposited data

Results flagged for a closer look

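The polysome change between GV and MII differed from the transcriptome change, by the test of the difference itself in edgeR, upward in 2305 genes and downward in 1421. ZP3, ZP4, TUBG1 and PMF1 are among the former and MCM6, DNAJC13 and HACE1 among the latter.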

How the results depend on the processing

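Counts of genes higher and lower in MII polysomes were 491 and 1853 with library totals in place of TMM factors, 0 and 0 in the 4 pools alone (edgeR's quasi-likelihood test; 1013 and 1014 at an unadjusted p below 0.05), and 443 and 341 in a fit of 30 pools and transcriptomes of 6 stages. Leaving out a polysome gradient gave 429 to 1402 higher and 677 to 1884 lower. The cause of these differences was not tested. The 30-library fit also called 1528 genes lower in transcriptomes, and 1042 above and 510 below the transcriptome change. Genes higher in transcriptomes numbered 668 with library totals and 1985 with DESeq2. With the gradient letter as a replicate block, 561 genes were higher and 732 lower in polysomes. The labels do not say whether the letters mark a shared collection, and the correlation of same-letter pool deviations, -0.04 from 1 pair, does not settle it. The likelihood ratio test called 764 shifts towards polysomes and 845 towards monosomes, library totals 117 towards polysomes and the table without a filter 388. Leaving out a gradient gave 146 to 562 shifts towards polysomes and 198 to 612 towards monosomes. Without the block of the shift fit the counts were 225 and 334. With F8 and F9 alone, chosen after seeing the data, 870 genes were higher and 1104 lower, 676 and 769 of them shared with F8 to F10. In that setting 36 of the 197 named genes with a call lost it. Named genes with a call that changed sign were IGF2BP1 with F6 to F10 (log2 fold change 0.59), KMT2A without MII gradient A (-0.68, and at most 3.96 with another gradient left out) and PLCB1 with F8 and F9 alone (1.06). Uncalled named genes changed sign too, among them GDF9 (-0.53 without GV gradient A, 0.25 without GV gradient B), CCNB2 (0.57 without MII gradient A, -0.42 without MII gradient B) and CDC20 (-0.11 and 0.34 without them). Of 197 named genes with a call, 81 lost it when one or another of the 4 gradients was left out. The other counts of the polysome, transcriptome and shift comparisons stayed within 1.5 times under the alternatives run. The amount of RNA in the polysomes as a whole was not measured, and motif content was not run. A gradient left out leaves 1 pool in its group, which is then assumed to vary like the other groups.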
